A study of Drosophila melanogaster with 3 samples.

Results

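The cytosolic large-subunit ribosomal protein genes of Drosophila melanogaster were taken as all protein-coding genes of Ensembl release 115 whose symbol is RpL or RpLP followed by a number, with or without letters or the ending -like. The rule gave 52 genes among 13945 protein-coding genes on chromosome arms 2L, 2R, 3L, 3R, 4 and X. It leaves out RpL37-1 and RpL37-2, whose symbols hold a hyphen before a number. A gene was counted as having a promoter peak when at least 1 of its annotated transcription start sites (TSSs) had a peak summit no more than 500 bp away.

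The large ribosomal subunit joins amino acids into protein, and its proteins fold around the large rRNAs and the 5S rRNA. A flexible stalk of acidic P proteins draws translation factors to it, and other proteins line the tunnel through which the new chain leaves. In flies most genes for these proteins are among the most transcribed of the genome, share a pyrimidine-rich initiator at the TSS called TCT, and give the growth defects known as Minute when a copy is lost.

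The samples were 3 biological replicates of whole embryos, 0 to 24 hours old and of mixed sex, from a transgenic line that stably expresses CG15011 with GFP at its C terminus. They form 1 group, so no condition was compared. Chromatin immunoprecipitation with sequencing (ChIP-seq) was used on sonicated chromatin, with CG15011 given as the antibody target. The promoter that drives the transgene and the state of the endogenous CG15011 gene were not given in the sources used here, while whole embryos mix all tissues. A text label calls each sample an input control, while the deposited notes derive each peak list from the replicate's own alignment and a separate control alignment, so the lists were read as immunoprecipitated libraries against a control. Peak lists hold no transcript levels, so the embryonic stage could not be checked with marker genes.

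Each replicate list and the list called on the pooled replicates held 30000 peaks, and the authors' optimal list held 3237, which were the 3237 strongest pooled peaks. Signals in the optimal list ran from 157.8 to 3202. The signal is the authors' own value per peak, the sources used here do not state its scaling, and it was compared only within a list. The strength of a peak is therefore given as its rank by signal, where rank 1 is strongest, and the same 3237 strongest peaks were taken from each replicate. Read depth is unknown.

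Promoter sequence is printed for 10 of the genes to show where the summit falls against the TSS and the elements found there. Each window runs 5′ to 3′ on the gene's strand over 120 bases, from 100 before the TSS to 20 from the TSS on, in dm6 coordinates with sequence from RefSeq. Capitals mark a DNA replication-related element (DRE, TATCGATA), the core of motif 1 bound by M1BP (GGTCACAC), an E-box (CACGTG) or 1 of the 8-mers described below, on either strand. They also mark the pyrimidine and the run of CTTT that make up an initiator of the TCT class, read on the gene's own strand. The first 7 genes had an optimal peak with its summit inside the window, and the last 3 had none.
RpL14, chr3L:8600906-8601025, plus strand: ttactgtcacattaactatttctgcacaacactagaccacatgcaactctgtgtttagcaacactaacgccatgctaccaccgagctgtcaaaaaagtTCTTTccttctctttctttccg
RpL27, chr3R:25685032-25685151, minus strand: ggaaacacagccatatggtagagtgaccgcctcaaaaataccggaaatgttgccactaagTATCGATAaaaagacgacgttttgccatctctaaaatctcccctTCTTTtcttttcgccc
RpL28, chr3L:3222941-3223060, minus strand: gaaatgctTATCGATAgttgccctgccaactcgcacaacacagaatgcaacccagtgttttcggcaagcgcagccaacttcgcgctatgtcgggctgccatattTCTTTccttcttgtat
RpLP0, chr3L:22075992-22076111, plus strand: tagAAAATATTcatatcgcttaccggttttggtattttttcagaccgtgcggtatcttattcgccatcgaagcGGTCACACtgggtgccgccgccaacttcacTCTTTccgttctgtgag
RpLP1, chr2L:419852-419971, plus strand: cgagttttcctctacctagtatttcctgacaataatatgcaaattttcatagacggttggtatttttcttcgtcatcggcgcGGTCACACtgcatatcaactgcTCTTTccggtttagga
RpL37A, chr2L:5070900-5071019, plus strand: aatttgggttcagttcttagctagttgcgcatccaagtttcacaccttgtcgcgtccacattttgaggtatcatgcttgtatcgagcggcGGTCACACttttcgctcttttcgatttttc
RpL24, chr2L:13395112-13395231, minus strand: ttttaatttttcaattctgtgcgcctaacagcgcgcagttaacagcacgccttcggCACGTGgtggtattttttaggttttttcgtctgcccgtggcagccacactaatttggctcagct
RpL4, chr3R:27922721-27922840, plus strand: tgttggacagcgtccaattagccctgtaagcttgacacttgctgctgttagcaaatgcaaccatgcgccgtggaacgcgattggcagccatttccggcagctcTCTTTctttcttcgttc
RpL40, chr2L:4227599-4227718, plus strand: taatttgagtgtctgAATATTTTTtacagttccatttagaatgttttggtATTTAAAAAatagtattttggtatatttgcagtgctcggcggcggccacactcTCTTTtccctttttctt
RpL24-like, chr3R:11431563-11431682, minus strand: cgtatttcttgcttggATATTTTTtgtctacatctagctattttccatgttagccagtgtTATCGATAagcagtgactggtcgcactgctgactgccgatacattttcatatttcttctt
The optimal summit lay 36 bp upstream of the TSS shown in RpL14, 49 bp in RpL27, 62 bp in RpL28, 22 bp in RpLP0, 40 bp in RpLP1 and 11 bp in RpL37A, and 4 bp downstream of it in RpL24. For RpLP0 and RpL37A the TSS shown is the one nearest the summit, and another lies farther upstream.

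Most of the 52 genes had CG15011 peaks at their promoters. In the optimal list 37 genes did, 71.2% (exact Clopper-Pearson 95% interval 56.9 to 82.9, for the counting of genes only), against 10.8% of all protein-coding genes. The other 15 were RpL4, RpL5, RpL6, RpL7-like, RpL10, RpL10Aa, RpL15, RpL21, RpL22-like, RpL24-like, RpL35, RpL35A, RpL36A, RpL40 and RpLP0-like. Among the strongest 3237 peaks of replicates 1, 2 and 3, 39, 38 and 33 genes had a promoter peak, where the same lists reached 12.5%, 11.9% and 9.92% of all protein-coding genes. That is a mean of 36.7 ± 3.21 genes (SD, n = 3). In all 3 replicates at once 32 genes did, 61.5%, against 7.01%. All 30000 pooled peaks reached 40 genes, 76.9%, against 33.3%. The optimal list is drawn from the same reads as the replicate lists, so these counts are not independent of each other.

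**Figure D1:**
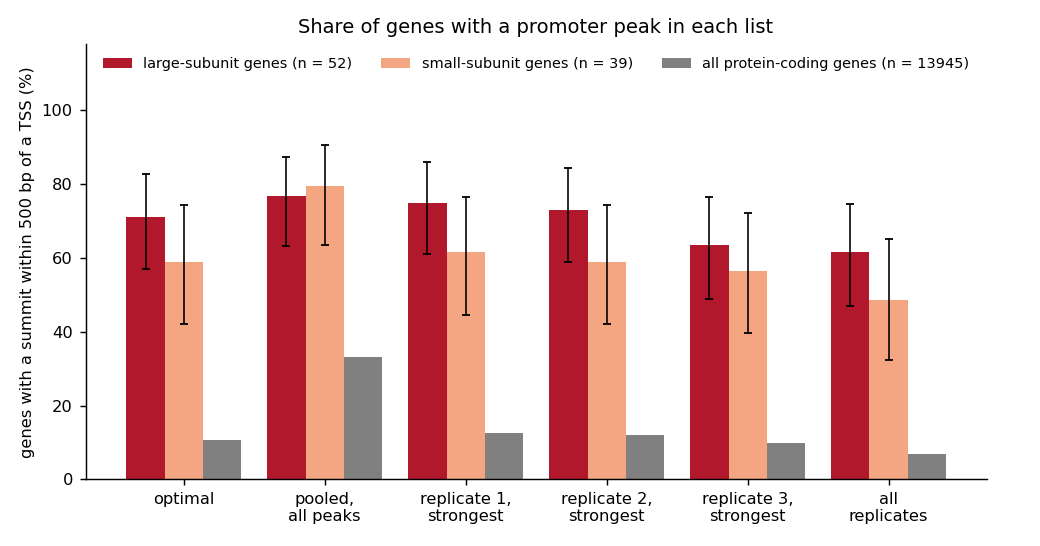
Share of genes (%, y axis) with a summit within 500 bp of a TSS in each list (x axis), for the 52 large-subunit genes, the 39 small-subunit genes and all 13945 protein-coding genes, with exact 95% intervals on the first pair of bars. The large-subunit share runs from 61.5% to 76.9% and lies above the share of all coding genes in every list.

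The counts were also taken by number of TSSs, by neighbour and by position in the genome. Of the 27 genes with 1 annotated TSS, 18 had an optimal peak, against 6.86% of the 10246 coding genes with 1 TSS. Of the 25 with 2 or more TSSs, 19 did, against 21.5% of 3699 coding genes. Genes with a coding neighbour starting on the opposite strand within 500 bp upstream had a peak in 18 of 22 cases (81.8%), against 17.9% of all 3815 such coding genes. Without such a neighbour the count was 19 of 30 (63.3%), against 8.08% of 10130 coding genes. Small nucleolar RNAs, which guide rRNA modification, lie within introns of many ribosomal protein genes, and 33 such genes lay inside 16 members. Of these hosts 12 had an optimal peak. Of all 84 coding genes that hold a small nucleolar RNA gene on the same strand, these 16 included, 35 (41.7%) did. Of the 36 other members 25 did, against 10.6% of the other coding genes. By chromosome arm, 8 of 13 genes on 2L, 11 of 13 on 2R, 8 of 10 on 3L, 6 of 11 on 3R and 4 of 5 on X had an optimal peak, and chromosome 4 holds no member. Over all coding genes of 2L, 2R, 3L, 3R and X the shares were 11.5%, 9.82%, 12.1%, 10.7% and 9.56%.

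The peaks were strong for promoter peaks. Over the 37 genes the median rank was 570.0, with the weakest at 3072, and the median signal 459.2. Over all 1500 coding genes with an optimal promoter peak the median rank was 1210 and the median signal 295.8. The 809 strongest of the optimal peaks held the peaks of 22 of the 37 (59.5%), against 37.5% of all coding genes with a peak. In replicates 1, 2 and 3 the median ranks were 710.0 (37 genes), 633.0 (37 genes) and 507.0 (35 genes). The order of the genes was similar between replicates as a description, with Spearman's rho of the signals of 0.852 for replicates 1 and 2 (37 genes), 0.804 for 1 and 3 and 0.790 for 2 and 3 (35 genes each), where all lists share the control. A promoter peak stood in all 3 replicate lists at any rank for 35 of the 37 genes, and RpL18 and RpL38 had none in replicate 3.

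**Figure D2:**
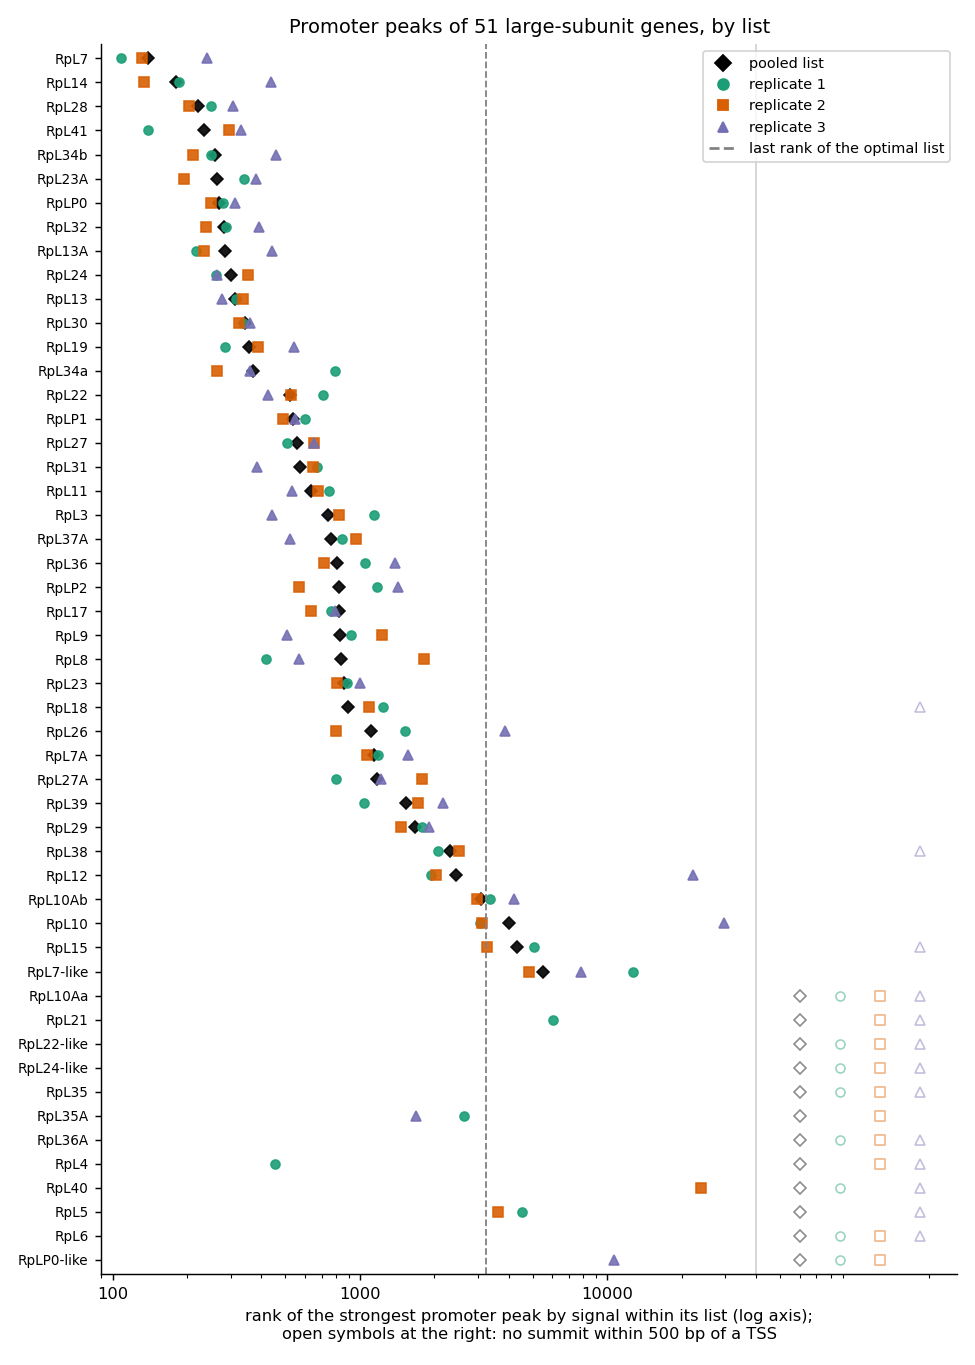
Rank by signal (log x axis) of the strongest promoter peak of 51 of the 52 genes (y axis, in order of pooled rank) in the pooled list and in replicates 1, 2 and 3, with open symbols at the right where a list has no summit within 500 bp of a TSS. The dashed line is rank 3237, the end of the optimal list, and the 11 strongest genes plotted stay at rank 456 or better in every list.

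The stalk genes were all among the 37 but spread widely. RpLP0, the protein that anchors the stalk to the rRNA, ranked 269 in the pooled list and 280, 251 and 313 in replicates 1, 2 and 3. RpLP1, which with RpLP2 forms the acidic tips of the stalk, ranked 534, and 598, 489 and 545 in the replicates. Both held close ranks in every replicate. RpLP2 ranked 824, with 1173, 569 and 1422 in the replicates. RpL12, which sits at the base of the stalk, ranked 2441 and was strong in replicates 1 and 2 (1930 and 2036) but only at 22147 in replicate 3. Replicate 3 thus stood apart for this gene.

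RpL5 and RpL11, which carry the 5S rRNA into the subunit and in mammals also bind the p53 regulator MDM2, differed. RpL11 ranked 634, with 751, 676 and 531 in the replicates. RpL5 had no optimal or pooled promoter peak, and weak peaks at rank 4538 in replicate 1 and 3606 in replicate 2, at 10 and 11 bp downstream of the TSS, with none in replicate 3. The nearest pooled peak lay 10392 bp away. RpL10, which is placed late in assembly next to the tRNA sites, fell just outside the optimal list at pooled rank 4014 with a signal of 135.6. It stood among the strongest 3237 in replicate 1 (3066, at -37 bp) and replicate 2 (3102, at -78 bp). In replicate 3 its only promoter peak ranked 29689 and lay elsewhere, at -459 bp. RpL3, which reaches towards the site of peptide bond formation, ranked 741, with 1142, 825 and 441 in the replicates, and RpL8, bound near the same site, ranked 842, with 416, 1811 and 568.

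Genes for proteins at or near the exit tunnel ranged from strong peaks to none. RpL23A, part of the docking site for factors that meet the new chain, ranked 264, with 341, 195 and 381 in replicates 1, 2 and 3, and its summit had no other TSS within 500 bp. RpL19 ranked 355, with 284, 386 and 542. RpL31 ranked 570, with 668, 649 and 383, also with no other TSS near. All 3 stood in the strongest 809 of every list. RpL17 ranked 825 and RpL26 1112, the latter with 1522, 800 and 3864 in the replicates. RpL39, the small protein that lines the tunnel, ranked 1542, with 1040, 1723 and 2176. RpL4, whose loop also lines the tunnel, had a peak in replicate 1 only, 53 bp upstream of its TSS at rank 452 of that list, and none in the pooled list or in replicates 2 and 3, whose nearest peaks lay 2507 and 2543 bp away. RpL35, at the tunnel exit, had no promoter peak in any list, and its nearest peak, 5352 bp away, ranked 166 in the pooled list.

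Among the 12 strongest genes, all at pooled rank 314 or better, were RpL7, RpL14, RpL28, RpL41, RpL34b, RpL23A, RpLP0, RpL32, RpL13A, RpL24 and RpL13. RpL7 had rank 139 and a signal of 902.5 (chr2L:10200898-10201166), and 108, 132 and 240 in the replicates. RpL14 ranked 181, with 186, 134 and 439, and RpL28 ranked 221, with 250, 203 and 306. RpL41, which encodes the shortest ribosomal protein and lies between the subunits, ranked 234, with 139, 296 and 331. Replicate 3 gave the weakest rank for each of these 4. RpL34b ranked 260, with 251, 211 and 456. RpL32, long used as a reference gene in fly expression work under the name rp49, ranked 283, with 287, 239 and 392. RpL13A ranked 286, with 217, 235 and 442, and RpL13 314, with 315, 338 and 277. RpL24, whose protein forms a bridge to the small subunit, ranked 302, with 262, 352 and 265, and had no other TSS within 500 bp. For each of these 11 genes the replicate ranks spread wider than the distance to the next of them in the pooled ranking, so the order within the set was not resolved.

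Of the remaining genes with an optimal peak, those with no other TSS near the summit were RpL30, RpL27, RpL9, RpL7A, RpL27A and RpL38, beside RpL8, RpL11, RpL23A, RpL24, RpL26, RpL31, RpL39 and RpLP2. RpL30 ranked 344 and stayed between 324 and 361 in the replicates. RpL27 ranked 556, with 506, 650 and 652, and RpL9 830, with 920, 1227 and 507. RpL30 was the steadiest of the 3. RpL7A ranked 1140, with 1186, 1069 and 1563, and RpL27A 1175, with 798, 1786 and 1217. RpL22, RpL37A, RpL36, RpL23 and RpL18 had pooled ranks of 524, 762, 811, 865 and 894.

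The 5 weakest genes inside the optimal list were RpL29, RpL38, RpL12, RpL10Ab and, just above them, RpL39. RpL29 ranked 1667, with 1781, 1470 and 1905 in the replicates. RpL38 ranked 2317, with 2069 and 2510 in replicates 1 and 2. RpL10Ab was the last, at rank 3072 with a signal of 164.4, and ranked 3363, 2974 and 4196 in the replicates. Just outside the list stood RpL10 (4014), RpL15 (4333, signal 128.6) and RpL7-like (5491, signal 110.9). Members thus lay on both sides of rank 3237, with none between ranks 3072 and 4014. The count depends on where the threshold falls, with 33 genes in the strongest 1618 optimal peaks and 40 over all pooled peaks.

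Summits at these genes lay close to the TSS. Positions are signed, negative upstream of the gene's nearest TSS. The median position of the 37 summits was -22 bp (quartiles -66 and -5, range -172 to 39), against -168 bp over all 1500 coding genes with an optimal promoter peak. Within 50 bp of the TSS lay 24 of 37 summits (64.9%), against 9.40%, and within 100 bp 33 (89.2%), against 21.7%. Upstream of the TSS lay 28 (75.7%, exact 95% interval 58.8 to 88.2), against 86.8%. The median depends on which TSS is used: with only the annotation's canonical TSS per gene it was -47 bp, against -163 bp over coding genes. Among genes with 1 annotated TSS, where there is no choice, it was -61.5 bp for 18 members against -172 bp for 703 coding genes. For members whose summit had no other TSS within 500 bp it was -14 bp (14 genes), against -184 bp (743 coding genes). No test of these differences was made, since genes are not replicates.

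**Figure D3:**
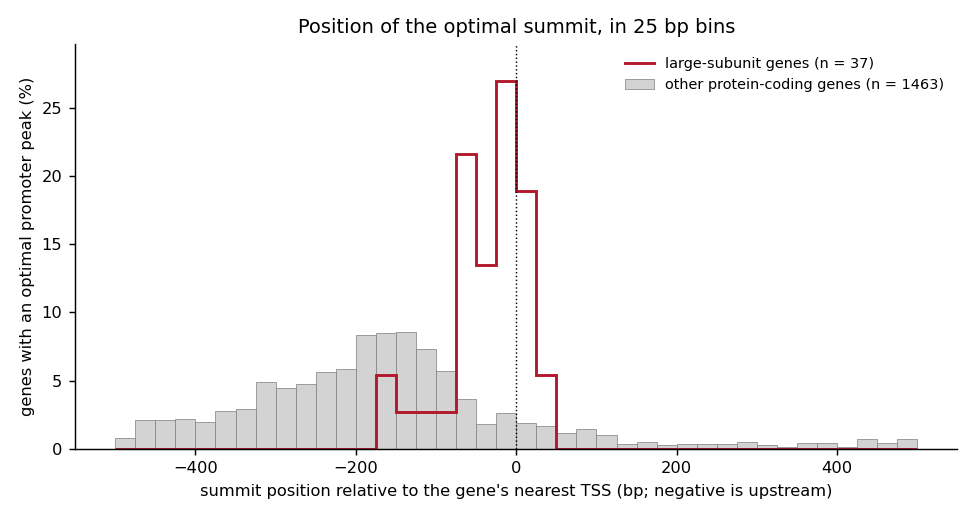
Position of the optimal summit relative to the gene's nearest TSS (x axis, bp, negative upstream) as the share of genes per 25 bp bin (y axis, %), for the 37 large-subunit genes (line) and the other protein-coding genes with such a peak (bars). The 25 bp just before the TSS hold 27.0% of the large-subunit summits and 2.60% of the others.

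Against the annotation, 14 of the 37 summits lay in a 5′ UTR of the member itself, none in its coding sequence or introns, and 23 outside it. Those of RpLP0, RpL31, RpL37A, RpL7A and RpL27A lay in a 5′ UTR yet upstream of the nearest TSS, as these genes have another TSS farther out. Of these 23, 22 lay in no gene, and the summit of RpL41 lay in an intron of NaCP60E, a sodium channel gene. The farthest downstream were RpL7 at 39 bp, RpL9 at 34 bp and RpL26 at 24 bp. RpL17 and RpL36 lay at 20 bp, RpL29 and RpL30 at 13 bp, RpL12 at 7 bp and RpL24 at 4 bp. Among the farthest upstream were RpLP2 at -172 bp, RpL32 at -148 bp and RpL34b at -115 bp.

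The position was measured again in each replicate. The median was -25 bp in replicate 1 (39 genes), -44.5 bp in replicate 2 (38 genes) and -10 bp in replicate 3 (33 genes) among the strongest peaks. In each replicate, 74.4%, 52.6% and 69.7% of these summits lay within 50 bp of the TSS. Over the 35 genes with a promoter peak in every replicate, the summit moved by a median of 45 bp between replicates (8 to 159 bp), with a median SD of 23.5 bp. RpL39 was the most repeatable at -2.00 ± 4.36 bp (SD, n = 3), followed by RpL19 at -4.00 ± 7.21 bp. RpL7 at 24.0 ± 10.6 bp was downstream in every replicate. RpLP2 had the widest range, at -109 ± 79.5 bp, and RpL26 (2.00 ± 80.0 bp) and RpLP1 (-59.7 ± 70.8 bp) also varied widely. In these last genes the SD was larger than the mean distance from the TSS, as it also was in RpL39, RpL19 and several others. Of the 35 genes, 18 had all 3 replicate summits upstream of the nearest TSS, 2 had all at or downstream of it, and 15 had both. Each summit was signed against the TSS nearest to it, so in genes with several TSSs the reference can switch between replicates. In RpL26 the SD of the summits themselves was 57.2 bp. RpL30 and RpL37A were among the 15, although all their replicate summits lay downstream of their outermost TSS.

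**Figure D4:**
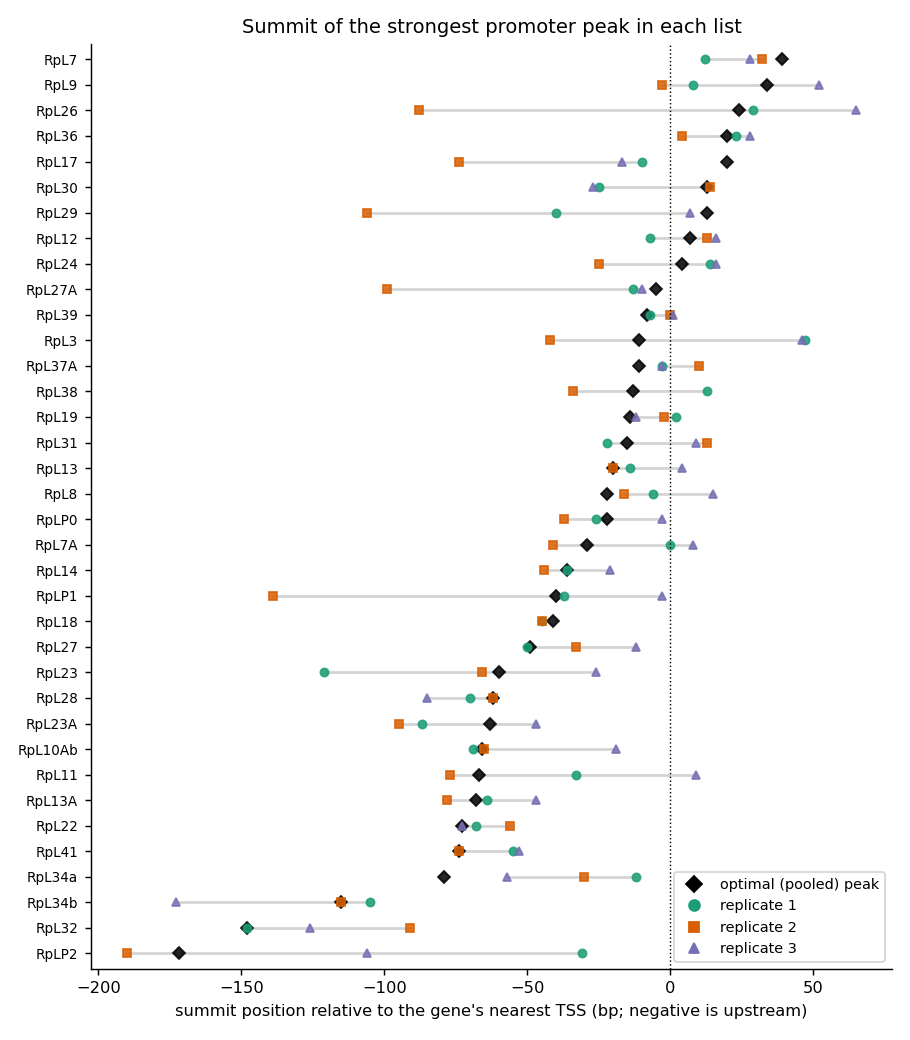
Summit position relative to the nearest TSS (x axis, bp, negative upstream) in the optimal list and in each replicate for 36 of the 37 genes (y axis, in order of optimal position), with a grey line over the range of the replicates. Replicate summits span from 8 bp in RpL39 to 159 bp in RpLP2.

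Many of the optimal peaks at these genes were also narrow, mainly the stronger ones. The commonest width in the optimal list was 444 bp, and 19 of the 37 member peaks (51.4%) were narrower, against 27.5% of all optimal promoter peaks. The narrowest, at RpL23, was 115 bp. Every member peak at rank 370 or better was narrower than 444 bp, and below that rank only those of RpL27, RpL31, RpL23 and RpL7A were. Width thus went with rank, and no comparison was made with other promoter peaks of like rank. The replicate lists differed: in replicate 3 the strongest promoter peak of each of these genes was 456 bp wide, except at RpL7 and where there was none. RpL28, RpL36 and RpL27A had a further optimal summit, with RpL28 at -62 bp (rank 221) and -275 bp (rank 645), RpL36 at 20 bp (rank 811) and -179 bp (rank 3070), and RpL27A at -5 bp (rank 1175) and -185 bp (rank 2264). In these 3 genes the stronger summit was the one nearer the TSS.

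Many summits could not be given to 1 gene alone. In 23 of 37 genes (62.2%) another gene also had a TSS no more than 500 bp from the summit, against 50.5% of all coding genes with a peak. With a window of 250 bp the count was 15, with 1000 bp it was 32, and when the peak interval itself had to cover the TSS of both genes it was 8. In 18 the neighbour was protein-coding (48.6%, against 46.6% of coding genes with a peak), and every such neighbour ran on the opposite strand. In 22 of the 23 the member's own TSS was the nearest.

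The coding neighbours were of varied function. Nelf-E, a subunit of the complex that pauses RNA polymerase II, started 91 bp from the RpL14 summit, itself 36 bp from the TSS of RpL14. Dref, the factor that binds the DRE, started 64 bp from the RpL13 summit, which lay 20 bp from the TSS of RpL13. eIF1, a translation initiation factor, started 319 bp from the RpL28 summit. Ripalpha stood 69 bp from the RpL7 summit, NaCP60E 108 bp from that of RpL41, and Sgf29, a subunit of histone acetylation complexes, 135 bp from that of RpL29. Trmt61, a tRNA methyltransferase gene, stood 150 bp from the summit at RpL34a and Mybbp1A, a nucleolar protein gene, 310 bp from that at RpL36. The others were Dph4 and Spec2 at RpL13A (281 bp), CG3776 at RpL19 (117 bp), CG8132 at RpL34b (154 bp), CG7943 at RpL32 (161 bp), Neos at RpL18 (236 bp), CG6693 at RpL3 (244 bp), CG13690 at RpLP1 (260 bp), CG7130 at RpLP0 (314 bp) and CG13531 at RpL23 (496 bp). In 5 genes (RpL22, RpL37A, RpL17, RpL12 and RpL10Ab) the only neighbours were non-coding, such as lncRNA:CR44966 at 85 bp from the RpL22 summit.

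Among genes whose symbols share a number, those named -like or Aa had no optimal peak. None of the 4 -like genes nor RpL10Aa had an optimal promoter peak (0 of 5, exact 95% interval up to 52.2%), against 37 of the other 47 (78.7%, 64.3 to 89.3) and 10.8% of all coding genes. With 5 genes, a count of 0 is near that background. RpL34a, also the first gene of a lettered pair, was counted with the other 47 and had a peak. The contrast thus depends on how the genes were grouped. RpL22 ranked 524 (710, 525 and 424 in the replicates), while RpL22-like, a paralogue enriched in the testis, had no promoter peak in any list. RpL24 ranked 302 and RpL24-like, whose yeast counterpart acts in assembly of the subunit, had none in any list. RpLP0 ranked 269, and RpLP0-like had only a peak of rank 10668 in replicate 3, 428 bp upstream. RpL7 ranked 139, and RpL7-like had weak peaks at ranks 12677, 4802 and 7856 in the replicates, 425, 421 and 354 bp upstream of its TSS. On the opposite strand, the coding gene JhI-21 starts 284 bp upstream of RpL7-like and 14-3-3zeta 87 bp upstream of RpLP0-like. Each starts between the -like gene's TSS and these summits, so nearer to the summits. These peaks could not be given to the -like gene alone. RpL10Aa had none in any list and RpL10Ab ranked 3072. The pair RpL34a and RpL34b differed from these: both had strong peaks, with RpL34a at pooled rank 370 and RpL34b at 260. In the replicates RpL34a ranked 793, 264 and 358 and RpL34b 251, 211 and 456, so their order turned in replicate 3.

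Pairs named with a number and the same number with A are different proteins that share only a number. Of these, RpL13 and RpL13A had close ranks (314 and 286). RpL23 and RpL23A (865 and 264), RpL27 and RpL27A (556 and 1175), and RpL7 and RpL7A (139 and 1140) had an optimal peak at both. RpL13A and RpL23A were stronger than RpL13 and RpL23, and RpL7A and RpL27A were weaker than RpL7 and RpL27. RpL18 ranked 1239 and 1092 in replicates 1 and 2, and RpL23 887, 811 and 1000 in the 3 replicates. RpL36 ranked 811, with 1048, 714 and 1384, and RpL36A had no promoter peak in any list. RpL35 and RpL35A both lacked a pooled promoter peak.

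The 15 genes without an optimal peak fell into 3 sets. RpL10, RpL15 and RpL7-like had a pooled promoter peak below the threshold, at -71, 27 and -445 bp. The last of these summits lay nearer the TSS of JhI-21 than that of RpL7-like. RpL4, RpL5, RpL21, RpL35A, RpL40 and RpLP0-like had none in the pooled list but had one in at least 1 replicate. RpL6, RpL10Aa, RpL22-like, RpL24-like, RpL35 and RpL36A had none in any list. RpL15 stood at 5063 in replicate 1 and 3273 in replicate 2, with none in replicate 3. RpL35A stood among the strongest peaks of replicate 1 (rank 2637, -21 bp) and replicate 3 (rank 1679, 58 bp), with none in replicate 2 or in the pooled list, where the nearest peak was 3523 bp away. RpL21 had a peak in replicate 1 alone (rank 6033, -83 bp). RpL40, translated as a fusion to ubiquitin, had a weak peak in replicate 2 alone (rank 23845, 106 bp), and its nearest pooled peak lay 1885 bp away. For RpL6, RpL10Aa, RpL22-like, RpL24-like and RpL36A the nearest pooled peaks lay 3499, 2334, 2021, 9720 and 7886 bp away. The nearest optimal peak lay 4388364 bp from RpL15, 392262 bp from RpL5, 216580 bp from RpL10 and 103445 bp from RpL21. The stretches around these genes thus held no optimal peak at all, and why was not tested.

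A strong replicate peak with nothing at the same place in the pooled list, as at RpL4 and RpL35A, was not peculiar to these genes. Of the strong promoter peaks of replicate 1, 135 of 1497 (9.02%) overlapped no pooled peak, as did 79 of 1458 (5.42%) in replicate 2 and 77 of 1414 (5.45%) in replicate 3. Why the pooled list lacks them was not tested.

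Elements known from ribosomal protein promoters were found at members with and without a peak. A TCT initiator, CTTT preceded by a pyrimidine with its first C within 5 bp of an annotated TSS, was found at 30 of 52 genes (57.7%), against 3.31% of all coding genes and 25 of 39 small-subunit genes (64.1%). It stood at 24 of the 37 genes with an optimal peak and at 6 of the 15 without, namely RpL4, RpL5, RpL7-like, RpL21, RpL35 and RpL40. The letters TATAAA 20 to 40 bp upstream of a TSS, on the gene's strand, were found at RpL39 alone (1 of 52), against 9.40% of coding genes. Of the 407 coding genes of neither subunit with a TCT initiator, 68 (16.7%) had an optimal promoter peak, against 10.8% of all coding genes. Their median summit position was -184 bp, with 16.2% within 50 bp of the TSS. The 1391 coding genes with a peak and no TCT had a median of -173 bp, with 7.19% within 50 bp. Within the members, the median position was -22 bp for the 24 with TCT and -60 bp for the 13 without.

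The DRE, bound by Dref, was found on either strand within 100 bp of the optimal summit at 10 of 37 genes (27.0%), against 4.05% of 1384 optimal promoter peaks. Among promoters of 300 bp, 250 before the TSS and 50 from it on, 14 of 52 (26.9%) held it, against 10.2% of all coding genes. A gene was counted if the promoter of any of its TSSs held the letters. Of the members 25 of 52 have 2 or more TSSs, against 3699 of 13945 coding genes, so members more often had several windows searched. Among the 10 were RpL10Ab, RpL19, RpL26, RpL27, RpL28, RpL34a, RpL36, RpL39 and RpL41, and the DRE lay 40 bp upstream of the TSS in RpL27 and 92 bp in RpL28, as printed above. The M1BP core was near the summit of 7 (18.9%, against 1.95%) and in 19.2% of member promoters against 8.71%. Those 7 were RpL7, RpL27, RpL27A, RpL30, RpL37A, RpLP0 and RpLP1, so that RpL27 held both. The E-box was near 5 summits (13.5%, against 2.17%), at RpL7, RpL8, RpL11, RpL24 and RpL29, and in 25.0% of member promoters against 5.30%. The GAGA letters GAGAGAG were near none of the 37 and in none of the 52 promoters, against 4.99% and 9.08%. Member summits lie nearer the TSS than others, so windows around them cover more core promoter. The letters were also found without a peak: the DRE lies 40 bp upstream of the TSS of RpL24-like, which has no peak.

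**Figure D5:**
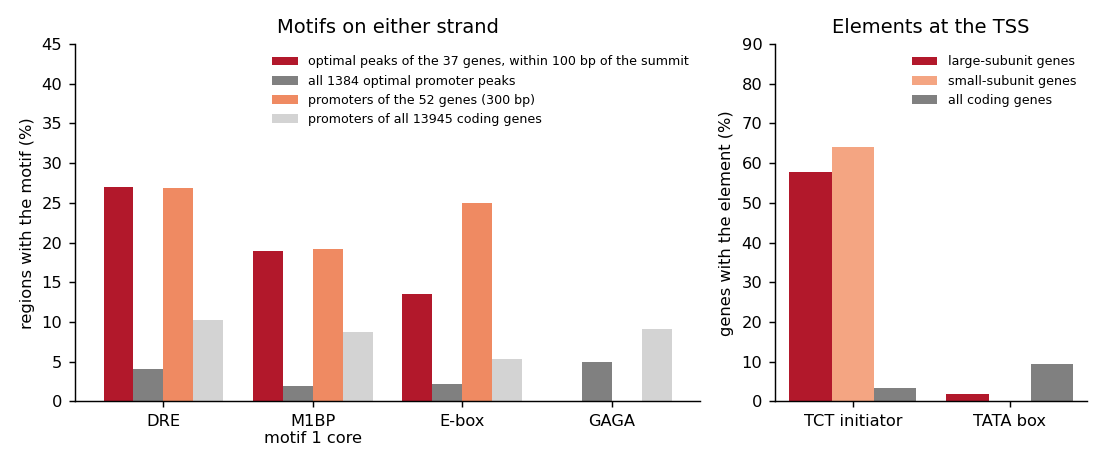
Left, share of regions (%, y axis) with each motif on either strand, within 100 bp of the optimal summit of the 37 genes and of all 1384 optimal promoter peaks, and in 300 bp promoters (any TSS) of the 52 genes and of all coding genes. Right, share of genes (%) with a TCT initiator or a TATA box at a TSS; the TCT share is 57.7% in large-subunit genes and 3.31% in all coding genes.

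The 8-mers most raised at the other optimal summits over sequence 500 bp to either side, searched on both strands, were AT-rich: ATTTAAAA, AAAAATAT, AAAATATT, TTTAAAAA and AATATTTA. These overlap each other. They lay within 100 bp of 4, 8, 5, 2 and 3 of the 37 member summits (10.8%, 21.6%, 13.5%, 5.41% and 8.11%), against 13.5%, 14.1%, 13.4%, 12.2% and 10.1% of all optimal promoter peaks. The 8-mers were chosen at summits outside the members, and such summits make up most of these promoter peaks. The shares of the promoter peaks are thus raised by the choice itself. Within 50 bp of the summit AAAAATAT was at 5.41% of member summits against 7.30%. In the 300 bp promoters of any TSS, whatever the peak, the 8-mers were in 23.1%, 26.9%, 30.8%, 15.4% and 19.2% of the 52 genes. Over all coding genes these shares were 16.2%, 15.7%, 14.0%, 16.4% and 11.5%. The RpL40 promoter, without an optimal peak, held 4 of the 5 in the window printed above.

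The small-subunit genes, the nearest group in function, were measured in the same way. An optimal promoter peak was found at 23 of 39 (59.0%, exact 95% interval 42.1 to 74.4), an interval that overlaps that of the large-subunit genes, and 23.0 ± 1.00 (SD, n = 3) had one among the strongest replicate peaks. Their median summit position was -11 bp, with 69.6% within 50 bp of the TSS. The strongest was RpS27 at rank 49. Summits close to the TSS were thus found at the genes of both subunits.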

How the data were processed

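Per the labels, ChIP-seq was done on 3 replicates of CG15011-GFP embryos, with chromatin sheared to 200-800 bp and coordinates on dm6. Per the deposited notes, the authors called peaks on each replicate and on the pooled replicates against 1 control alignment, and derived the optimal list by the irreproducible discovery rate. The aligner, caller, versions and threshold were not given in the sources used here. Each peak's deposited signal value was used to rank it within its list. The deposited −log10 q-value was used only to order ties. Of the optimal peaks, 2 had a summit offset outside the peak, and their midpoint was used.

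TSSs came from Ensembl release 115 without transposable elements (18164 genes) and sequence from RefSeq's copy of the same assembly. Peaks were assigned with Python 3.11.15, numpy 2.4.6 and pandas 2.3.3, intervals with scipy 1.17.1, and figures with matplotlib 3.10.9. Where a gene had several peaks the strongest was used. The distance and motif searches were tested on simulated data. With 1 group no test between groups was made. The genes, lists and motifs were chosen with earlier results of these data known. Named were all members, with values for the 12 strongest, the 12 strongest without a neighbouring TSS, number-sharing pairs, the 5 weakest, stalk, 5S and ubiquitin-fusion genes, and those without a peak; 1 gene that the rule names is counted but not reported by name here. Alternatives were promoter windows of 250 and 1000 bp, the stronger part of the list, intervals, midpoints, canonical TSSs, other numbers of replicate peaks, other motif windows and each replicate left out.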

Additional observations from a re-analysis of the deposited data

How the results depend on the processing

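Of 73 recomputed values, 67 stayed within the spread or ratio that was set for them. These limits were wide for motif shares: the E-box went from 13.5% near summits to 25.0% of promoters and TTTAAAAA from 5.41% to 15.4%, both within them. The number of genes with an optimal promoter peak was 37 with windows of 250 and 1000 bp, and 33 in the stronger part of the optimal list. As every member summit lay within 172 bp of a TSS, the 250 bp window could not change this number. The count of genes sharing a summit fell from 23 to 15 with a 250 bp window and to 8 with the peak interval over a TSS, and was 32 with a 1000 bp window. The median position went from -22.0 bp to -47.0 bp with the canonical TSS only. The share of member summits with AAAAATAT went from 21.6% to 5.41% within 50 bp of the summit, and that with AAAATATT from 13.5% to 2.7%, where the narrower window holds less sequence. AAAATATT was in 30.8% of member promoters, against 14.0% of all coding promoters, where members more often have several TSSs to search. With each replicate left out in turn, the optimal genes found among the strongest peaks of the other replicates numbered 32 to 36, their median position -25.5 to -22.0 bp, their upstream share 75.0% to 78.1%, the sharing genes 20 to 22, the median rank 529.0 to 563.0, and the mean count over replicates 35.5 to 38.5. No paired analysis was possible because there is 1 group. Unknown read depth limits what the lack of a peak can show, and lists of fixed length rank peaks only within themselves.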

Other observations

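Genes for proteins that build the large subunit were counted beside those of its own proteins, with no test of the difference. Of 13 assembly and nucleolar genes, 2 (15.4%) had an optimal promoter peak, near the 10.8% of all coding genes. They were eIF6, whose protein keeps the subunits apart until assembly ends, at rank 57 with replicate ranks 48, 50 and 132, and Ns2, a nucleolar GTPase gene, at rank 162 with 223, 142 and 170. NHP2 lacked an optimal peak but ranked 762 in replicate 1 and 657 in replicate 3. Also among the strongest 3237 were Non1 (1854) and Nnp-1 (2075) in replicate 1 and Fib (2380) in replicate 3. In replicate 2 no further gene of the 13 was. More of these genes were thus reached in replicates 1 and 3 than in the optimal list. Of 6 genes for regulators of ribosomal protein transcription and growth, only Dref had an optimal peak, the one it shares with RpL13 at rank 314. RpL37-1, outside the rule by its symbol, ranked 1364 with its summit at -60 bp, and RpL37-2 had no promoter peak in any list.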
